A study of Mus musculus with 15 samples.

Results

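Myh6 and Myh7, the genes of the alpha and beta heavy chains of cardiac myosin, were followed in whole-tissue RNA of the mouse medial prefrontal cortex (mPFC), cut out by atlas position. They were found in the deposited table by their Entrez identifiers, 17888 and 140781, and are 2 of its 27179 identifiers. Myh6 was chosen because its level was highest in the libraries made before fear extinction without ABX, and Myh7 entered as its paralog. Comparisons of Myh6 that use those libraries are therefore given as descriptions with no test. All mice were C57BL/6J, with no further allele named in the labels, and neither age nor sex is stated. ABX is a usual abbreviation for antibiotics, which the labels do not spell out, and in fear extinction an animal learns that a cue no longer predicts harm. Before extinction there were 3 libraries without ABX (numbered 1, 3 and 4 in the labels) and 4 with it. After extinction there were 4 libraries of each kind. These groups are called pre-extinction or post-extinction, and ABX or non-ABX. The labels do not say that a library is 1 animal, so p-values measure the spread among libraries, which may be technical in part.

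A muscle myosin is a motor protein in which a pair of heavy chains, each with an ATP-splitting head and a long coiled tail, carries light chains at the neck. In the adult mouse heart Myh6 is the main ventricular heavy chain and a fast ATPase, whereas Myh7 is slower, is the fetal ventricular form and is also the heavy chain of slow skeletal fibres. Thyroid hormone raises Myh6 and lowers Myh7 in the heart. The cerebral cortex is not a tissue in which either gene is a main myosin, since non-muscle chains serve its cells and Myh11 serves the smooth muscle of its vessels.

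The genes lie head to tail on the minus strand of chromosome 14 in mm10, Myh6 at chr14:54941921-54968017 and Myh7 at chr14:54970684-54994626. Each holds a microRNA gene in an intron of the same strand, Mir208a in intron 29 of Myh6 and Mir208b in intron 31 of Myh7. The mature microRNAs are shown because they carry the family likeness of their hosts into a second product. Capitals mark the seed, bases 2 to 8 from the 5′ end, and both have the seed UAAGACG. The sequences are those of RefSeq on GRCm38.p6, at chr14:54949072-54949093 and chr14:54975710-54975731, both on the minus strand.
miR-208a-3p: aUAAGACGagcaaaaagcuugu
miR-208b-3p: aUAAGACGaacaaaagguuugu

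The likeness of the host transcripts bears on every value below, because a read from an identical stretch cannot be given to 1 gene. Of 5805 aligned coding bases in the GENCODE transcripts, 5322 were identical (91.7%), and of 1935 aligned residues 1811 were identical (93.6%). The longest identical run was 245 bases in the part that encodes the tail. It covers coding bases 4246 to 4490 of Myh6, in exons 30 and 31 of 39 (chr14:54948327-54948725, minus strand), and coding bases 4240 to 4484 of Myh7, in exons 32 and 33 of 41 (chr14:54974947-54975347, minus strand). It is printed once, 5′ to 3′, since it is the same in both genes.
Myh6 and Myh7 shared run: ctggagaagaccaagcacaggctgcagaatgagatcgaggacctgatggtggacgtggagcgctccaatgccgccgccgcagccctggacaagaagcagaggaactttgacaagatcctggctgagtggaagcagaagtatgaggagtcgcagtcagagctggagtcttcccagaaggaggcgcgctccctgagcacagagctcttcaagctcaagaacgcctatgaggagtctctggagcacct

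The least alike 60 coding bases show where a read can be told apart. They span exons 24 and 25 of Myh6 (coding bases 3226 to 3285, chr14:54952303-54952599) and exons 26 and 27 of Myh7 (coding bases 3220 to 3279, chr14:54980378-54982191). Capitals mark the 27 bases that differ, and the other 33 are identical.
Myh6 least alike stretch: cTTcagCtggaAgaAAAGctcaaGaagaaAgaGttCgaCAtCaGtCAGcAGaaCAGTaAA
Myh7 least alike stretch: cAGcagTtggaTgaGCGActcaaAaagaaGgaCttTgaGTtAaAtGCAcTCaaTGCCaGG

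Of all 6064 fragments of 50 bases in the Myh6 transcript, 1373 (22.6%) also occurred in Myh7. The share was 15.5% for fragments of 75 bases and 11.4% for fragments of 100 bases. Seen from Myh7, the shares in Myh6 were 22.2%, 15.3% and 11.2%. The next gene with any fragment in common was Myh1, a skeletal heavy chain, with 10 fragments of 50 bases and none of 75. For these libraries the read length and the rule for reads with several matches are not stated. The 2 counts are therefore reported as uncertain in the shared part, which lay in blocks along the transcript.

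**Figure D1:**
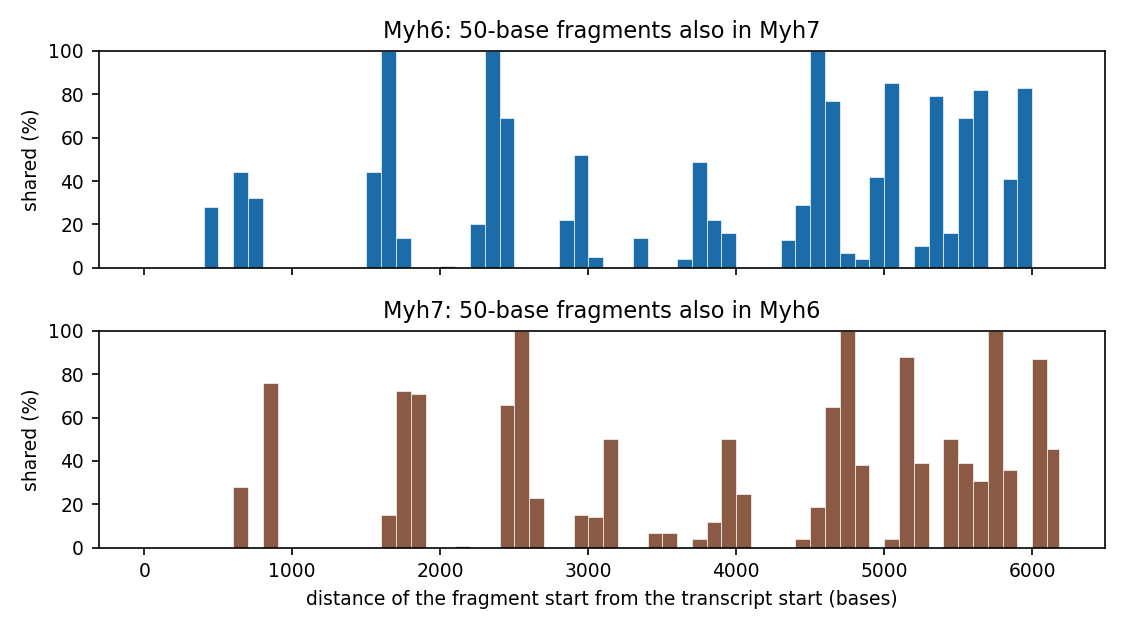
Percent of 50-base fragments of each transcript that also occur in the paralog (y axis), in windows of 100 fragment starts along the transcript (x axis, bases from its start). Shared blocks stood between long stretches with none, and over the whole transcript 22.6% of Myh6 fragments and 22.2% of Myh7 fragments were shared.

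Depth ran from 44254906 to 57929503 counts per library. Levels are in TMM-scaled CPM, which sets all libraries to one size by edgeR's TMM factors. The factors ran from 0.969 to 1.03, and 16816 genes were tested, both members among them. The summed level of 5 excitatory neuron markers was 5946 to 7679 CPM in every library, against 10.4 to 16.1 CPM for 10 cardiomyocyte markers. These sums cannot tell the mPFC from other cortex. Nor can they tell dissected tissue from sorted cells, which the labels' protocol text names. In bulk tissue, fewer cells of a type and less RNA per cell cannot be told apart.

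Myh6 was detected in every library. Before extinction without ABX it had 5.07, 4.74 and 4.79 CPM in replicates 1, 3 and 4, from 294, 240 and 233 counts. Before extinction with ABX it had 1.79, 1.31, 1.09 and 1.63 CPM in replicates 1 to 4, from 81, 72, 51 and 81 counts. The 3 libraries without ABX lay close together. They also lay above all 4 with ABX, a separation seen in 3.14% of all genes tested. After extinction without ABX the values were 1.87, 2.10, 2.74 and 2.62 CPM, from 99, 111, 130 and 133 counts. After extinction with ABX they were 1.85, 1.46, 1.83 and 1.40 CPM, from 87, 71, 91 and 67 counts. After extinction the groups met at the edge without overlapping, with 1.87 CPM as the lowest library without ABX and 1.85 CPM as the highest with it.

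The order of the Myh6 group means was 4.87 ± 0.175 CPM (SD, n = 3) before extinction without ABX, 2.33 ± 0.416 (n = 4) after extinction without ABX, 1.64 ± 0.241 (n = 4) after extinction with ABX and 1.45 ± 0.317 (n = 4) before extinction with ABX. The first and second of these groups did not overlap (3.57% of genes lay lower after extinction without ABX with no overlap), nor did the post-extinction groups, whereas the ABX groups did. The choice of Myh6 fixed the place of the first group.

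**Figure D2:**
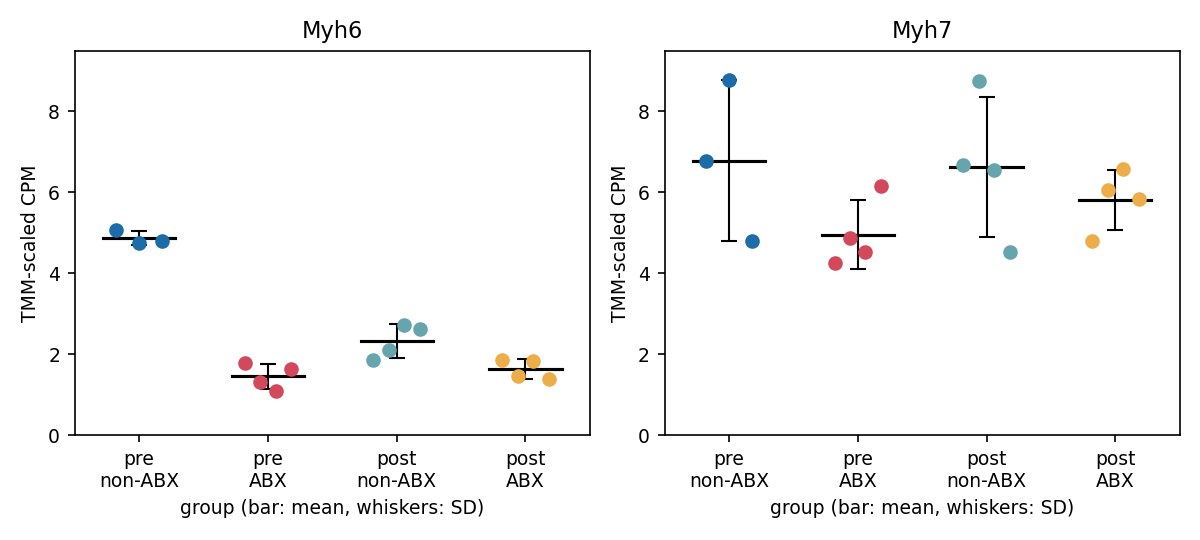
Level of Myh6 (left) and Myh7 (right) in TMM-scaled CPM (y axis) in each library, by group (x axis); points are libraries, bars group means and whiskers SD. The 3 pre-extinction non-ABX libraries held 4.74 to 5.07 CPM of Myh6 and every other library at most 2.74 CPM, while the Myh7 groups overlapped.

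As a description, the fitted log2 fold change of Myh6 with ABX before extinction was -1.74 (SE 0.17), or 3.35-fold lower. After extinction without ABX it was -1.06 (SE 0.16) against the stage before, or 2.09-fold lower. The difference between the ABX effects of the stages was 1.24 (SE 0.23) on the log2 scale. These contrasts share the pre-extinction non-ABX libraries that chose the gene. Among all 16816 genes, edgeR called 1 in the ABX comparison before extinction (0.00595%), which was Myh6 itself and so adds nothing to the choice. Between the stages without ABX edgeR called 0 genes (0.0%), 830 had an unadjusted p under 0.05 (4.94%), and DESeq2 called 19 (0.113%).

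The Myh6 comparisons that did not use those libraries did not pass. With ABX after extinction the log2 fold change was -0.51 (SE 0.16, 95% interval -0.85 to -0.16, edgeR adjusted p = 0.262), or 1.42-fold lower, with all 4 ABX libraries below all 4 without. In that comparison 3 of 16816 genes were called (0.0178%), and DESeq2, which called 179 (1.06%), did not call Myh6 (adjusted p = 0.117). Of all genes, 6.36% had every ABX library below every non-ABX one. With the ABX groups compared across stages, the log2 fold change was 0.17 (SE 0.17, interval -0.19 to 0.53, edgeR adjusted p = 0.562). There edgeR called 16 genes (0.0951%) and DESeq2 287 (1.71%), neither member among them. With the trend on GC content removed in each library, a setting added after seeing the data, the Myh6 value for that stage comparison was 0.0036. For ABX after extinction it was -0.37 with that trend removed (edgeR adjusted p = 0.338). With the counts of both members summed, the value for ABX after extinction was -0.27 (edgeR adjusted p = 0.403).

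Myh7 had 6.77, 8.78 and 4.79 CPM before extinction without ABX, from 393, 444 and 233 counts in replicates 1, 3 and 4. With ABX before extinction it had 4.25, 4.88, 4.52 and 6.17 CPM, from 192, 269, 212 and 306 counts. After extinction it had 6.68, 8.75, 6.55 and 4.54 CPM without ABX, from 354, 463, 311 and 230 counts, and 4.81, 6.07, 6.57 and 5.83 CPM with it, from 226, 295, 326 and 280 counts. High and low libraries occurred in the same group: replicates 3 and 4 before extinction without ABX stood at 8.78 and 4.79 CPM. The group means, 6.78 ± 1.99, 6.63 ± 1.72, 5.82 ± 0.740 and 4.95 ± 0.849 CPM (SD) in falling order, belonged to pre-extinction non-ABX (n = 3), post-extinction non-ABX (n = 4), post-extinction ABX (n = 4) and pre-extinction ABX (n = 4). Each pair of neighbours in that order overlapped.

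No Myh7 comparison passed the threshold of edgeR's quasi-likelihood test. With ABX before extinction its log2 fold change was -0.45 (SE 0.21, 95% interval -0.90 to -0.01, edgeR adjusted p = 0.312). That value was -0.23 with pre-extinction non-ABX replicate 3 left out and -0.23 with the GC trend removed. With ABX after extinction it was -0.19 (SE 0.20, interval -0.60 to 0.23, edgeR adjusted p = 0.640), and -0.02 without replicate 2 of the post-extinction non-ABX group. Between the stages it was -0.03 without ABX (SE 0.21, interval -0.48 to 0.41, edgeR adjusted p = 0.971). That comparison turned to 0.19 without replicate 3 of the pre-extinction group and to 0.11 without replicate 4 of the post-extinction group. With ABX the stage value was 0.23 (SE 0.20, interval -0.19 to 0.65, edgeR adjusted p = 0.502). The intervals reach values as large as -0.90, so they do not show that Myh7 was level across groups. With the GC trend removed the values were -0.04 for ABX after extinction, -0.12 between stages without ABX and 0.07 with ABX. The interaction of ABX and stage was 0.26 (SE 0.29, interval -0.35 to 0.87, edgeR adjusted p = 1.0), and 0.04 without pre-extinction non-ABX replicate 3.

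**Figure D3:**
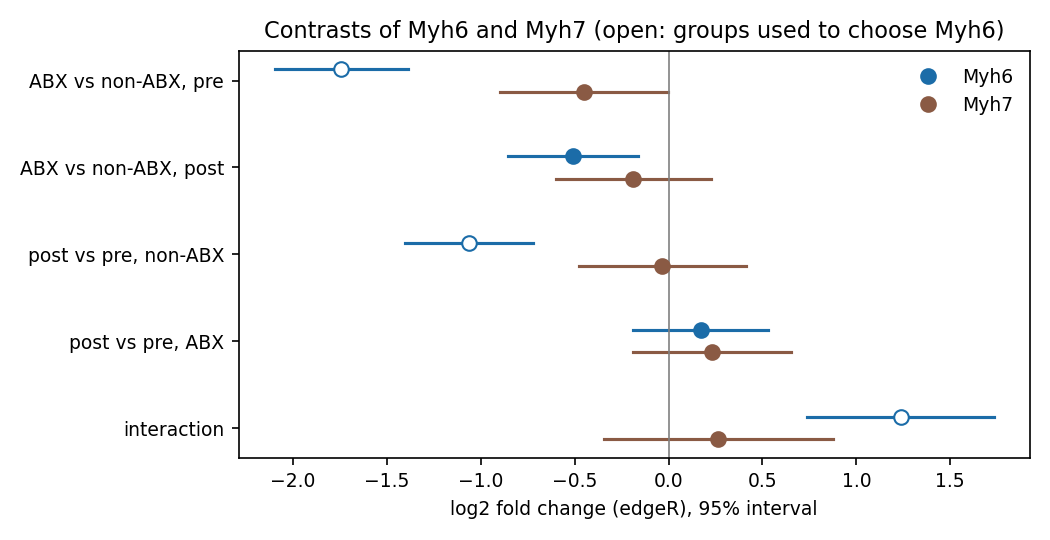
Fitted log2 fold change (x axis) with its 95% interval for Myh6 and Myh7 in each comparison (y axis); open points mark Myh6 comparisons that use the libraries it was chosen on. Among filled points the Myh6 interval for ABX after extinction ran from -0.85 to -0.16, the Myh7 interval for ABX before extinction ended at -0.01, and the other Myh7 intervals crossed 0.

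Myh7 held most of the counts of the pair in nearly all libraries. Its share of Myh6 plus Myh7 counts was 57.2%, 64.9% and 50% in pre-extinction non-ABX replicates 1, 3 and 4. It was 70.3%, 78.9%, 80.6% and 79.1% in pre-extinction ABX replicates 1 to 4. After extinction it was 78.1%, 80.7%, 70.5% and 63.4% without ABX and 72.2%, 80.6%, 78.2% and 80.7% with ABX. The lowest share, 50%, had a Wilson 95% interval of 45.5% to 54.5%, which covers counting error only, since reads without molecular identifiers are not independent molecules. Post-extinction non-ABX replicate 4, at 63.4%, lay below the 64.9% of pre-extinction non-ABX replicate 3, so the groups overlapped in this ratio.

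The share after extinction averaged 77.9 ± 3.98% with ABX and 73.2 ± 7.83% without (SD, n = 4 each), a difference of 4.75 percentage points (two-sided exact permutation test, p = 0.2857). Between the stages with ABX it differed by 0.695 points from 77.2 ± 4.66% (SD, n = 4; exact permutation p = 0.7143). Over its 70 splits, the exact test of 4 libraries against 4 cannot go below p = 0.02857. The difference between stages turned to -1.60 points without pre-extinction ABX replicate 1. Without post-extinction non-ABX replicate 4 the difference after extinction was 1.48 points.

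**Figure D4:**
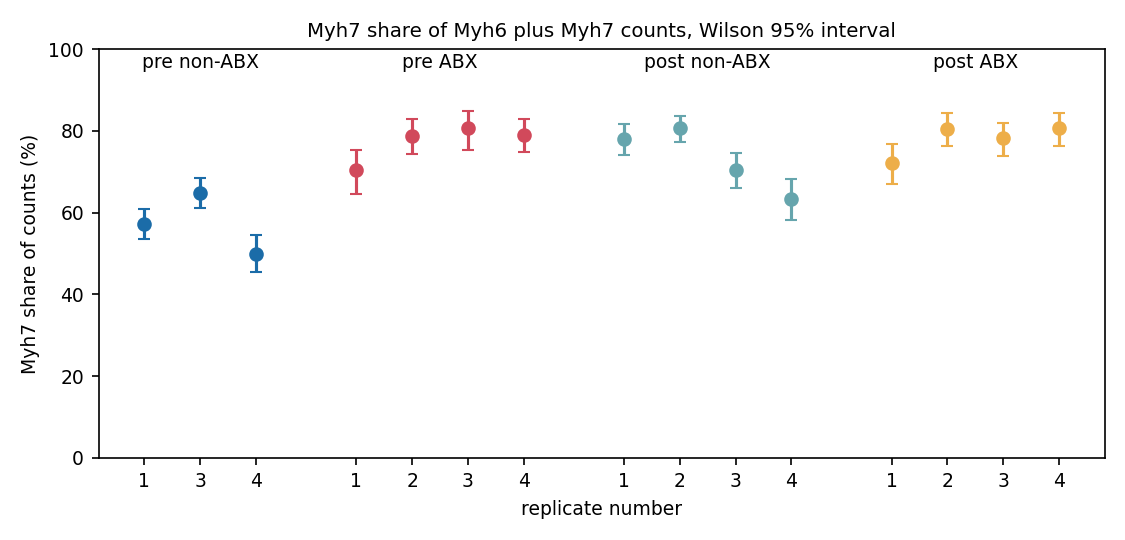
Myh7 share of the summed Myh6 and Myh7 counts in percent (y axis) in each library, by group and replicate number (x axis); whiskers are Wilson 95% intervals for counting error. Shares ran from 50% to 64.9% before extinction without ABX and from 63.4% to 80.7% in the other 12 libraries.

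Across the 12 libraries outside the group that chose Myh6, log2 CPM of the paralogs had a Pearson r of 0.283 (permutation p = 0.372) and a Spearman rho of 0.413 (permutation p = 0.184). No other pair of genes had its correlation tested, so the adjusted values are the same. Without the 2 libraries farthest from the median of Myh6, r was 0.0222 (n = 10, permutation p = 0.951). Leaving out extreme values also narrows the range, and no relation was shown with or without them. The points share library depth and the reads of identical stretches. When the counts of both genes were summed, the log2 fold change with ABX before extinction was -0.86 in place of the -1.74 of Myh6 alone. The sum mixes the genes. It removes the uncertainty of shared reads only if each was counted once, for either gene, which is not stated.

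Among the 14 myosin heavy chain genes listed, levels per transcript length were led by the non-muscle chains. Myh10 had 65.3 CPM per kb, Myh9 14.9 and Myh14 3.02, as means over the 15 libraries. Smooth muscle Myh11 followed at 1.13 CPM per kb, then Myh7 at 0.963 and Myh7b, a chain of slow fibres and heart, at 0.871. Embryonic Myh3 had 0.612 CPM per kb and Myh6 was eighth at 0.396. Per kb, Myh6 stood at 0.796 before extinction without ABX, 0.238 before extinction with ABX, 0.381 after extinction without ABX and 0.268 after extinction with ABX. The adult skeletal chains Myh1, Myh2 and Myh4 had 0.277, 0.230 and 0.130 CPM per kb, and perinatal Myh8 was lowest at 0.0368.

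Of the other 12 heavy chains, edgeR called 0 in each comparison. In the ABX comparison before extinction 4 of the 12 had an unadjusted p under 0.05, all with negative values, beside 16.0% of all genes tested, and DESeq2 called 0 of the 12 and 15 of all genes (0.0892%). Their median log2 fold change was 0.04, beside 0.01 over all genes tested. After extinction 1 of the 12 had an unadjusted p under 0.05, beside 13.3% of all genes. It was Myh11, which DESeq2 called, beside 179 of all genes (1.06%). Myh11 had 9.38 ± 1.89 CPM (SD, n = 3) before extinction without ABX and 5.38 ± 1.58 (n = 4) with it, a log2 fold change of -0.80 (edgeR adjusted p = 0.311). After extinction it had 9.54 ± 1.93 CPM without and 5.71 ± 1.49 with ABX (SD, n = 4 each; -0.74, edgeR adjusted p = 0.197). Non-muscle Myh9 gave -0.53 before and -0.35 after extinction, and Myh7b -0.68 and -0.31, with edgeR adjusted p = 0.311 for both before extinction.

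Other transcripts of the cardiac sarcomere were read in the same libraries as Myh6. Myl3, the ventricular essential light chain that sits on the myosin neck, had 20, 10 and 15 counts before extinction without ABX, and 0 to 3 counts in each of the other 12 libraries. The lowest of those 3 libraries therefore held more Myl3 counts than any other library. Its summed counts of 45 against 3 before extinction with ABX give a CPM ratio of 18.8, with an exact 95% counting interval of 6.03 to 94.4. Against post-extinction non-ABX libraries, also at 3 counts, the ratio was 19.5 (6.25 to 98.0). Against post-extinction ABX libraries, at 6 counts, it was 9.22 (3.92 to 26.4). These intervals cover counting error of the summed counts only, not the spread among libraries, and reads are not independent molecules.

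Myl3 was below the filter on low counts and so was not among the 16816 genes tested. With no filter, edgeR called 2 of 22508 genes in the ABX comparison before extinction and 2 between stages without ABX (0.00889% each), and both times they were Myh6 and Myl3. These calls are descriptions that support nothing, since they use the libraries that chose Myh6 and Myl3 was singled out after its counts were seen. The Myl3 call was kept in 5 of 15 fits that left out 1 library, for either comparison. Among the fits that lost both were those without pre-extinction non-ABX replicate 1 or 4.

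Myl2, the regulatory light chain of ventricle and slow muscle, had 0.741, 0.988 and 0.679 CPM before extinction without ABX, from 43, 50 and 33 counts. In the other 12 libraries it had 0.229 to 0.535 CPM. Mb, myoglobin, the oxygen-binding protein of heart and slow muscle, had 0.845, 1.05 and 0.802 CPM in those 3 libraries, from 49, 53 and 39 counts, and 0.250 to 0.552 CPM elsewhere. Nppa, the atrial natriuretic peptide gene, had 0.655, 0.692 and 0.699 CPM there, from 38, 35 and 34 counts, and 0.265 to 0.534 CPM elsewhere. All 3 genes stood apart in the libraries in which Myh6 did, as did 23 of 19016 genes with at least 20 counts (0.121%). In their lists it was 2 of 24 sarcomere genes, 1 of 13 regulators and 1 of 15 skeletal fibre genes. Genes with this pattern were named after their values were seen, so this is a description.

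With ABX before extinction the log2 fold changes were -1.15 for Myl2, -1.17 for Mb and -0.60 for Nppa (edgeR adjusted p = 0.311 for each). DESeq2 called Mb alone of these, and 15 of all genes (0.0892%). After extinction, where the comparison does not use those libraries, the log2 fold changes were 0.02, -0.40 and 0.15 (edgeR adjusted p = 0.976, 0.432 and 0.752). Mybpc3, cardiac myosin-binding protein C, which clasps the thick filament, gave -0.66 before (edgeR adjusted p = 0.311) and -0.04 after extinction (0.907). Its lowest library before extinction without ABX, at 1.43 CPM, lay below 1 post-extinction ABX library at 1.51 CPM. Tnni3, the inhibitory cardiac troponin, gave -1.23 and 0.38, from 16 to 27 counts before extinction without ABX and 7 to 25 counts elsewhere.

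Of the 27 sarcomere genes, 8 were below the filter, Myl3 among them, and 5 of the 8 had their highest group mean before extinction without ABX. Csrp3, a muscle LIM protein of the Z-disc, had 1, 7 and 2 counts before extinction without ABX and 0 in all 12 other libraries. Lmod2, a leiomodin that lengthens thin filaments, had 2, 2 and 6 counts there and 0 or 1 elsewhere. Ankrd1, a stress-induced nuclear and titin-binding protein of cardiomyocytes, had 5, 28 and 16 counts there and 0 to 7 elsewhere. Actc1, cardiac actin, had 5, 10 and 9 counts there and 0 to 5 elsewhere, so that Ankrd1 and Actc1 did not stand apart in replicate 1. The other 3 of the 8 had their highest mean elsewhere. Mybphl, a relative of myosin-binding protein C, had a mean of 0.0444 CPM before extinction without ABX and 0.0667 to 0.0816 in the other groups. Myoz2, a calsarcin of the Z-disc, had 0.0406 CPM there and 0.0361 to 0.0539 in the others, and the atrial light chain Myl7 had 0 counts there and at most 2 in any other library. Of 7 regulators below the filter with any count, 2 had their highest mean there, Tbx20 and Hand2, with 2 counts and 1 count. Of 4 such skeletal fibre genes it was also 2. No share over all genes below the filter stands beside these tallies, and several of the means rest on few counts. The tallies are therefore descriptions only.

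Not all heart genes had this pattern. Tnnt2, cardiac troponin T, had the highest level of the cardiomyocyte markers and showed no such separation, at 9.69 to 10.8 CPM before extinction without ABX and 8.24 to 13.8 CPM elsewhere. The heart's defining transcription factor Nkx2-5 was at 0 counts in every library, and Gata4, Tbx5, Tbx20 and Hand2 had at most 2 counts in any. The summed level of the 10 cardiomyocyte markers was 13.5 to 15.5 CPM before extinction without ABX, 11.0 to 12.4 with ABX, 10.4 to 12 after extinction without ABX and 11.9 to 16.1 with ABX. All 5 of its tested members were negative in the ABX comparison before extinction, with a median log2 fold change of -0.66. After extinction 4 of the 5 were positive (median 0.15). Of all 16816 genes tested, 8158 were negative before and 8671 positive after extinction. These markers moved with Myh6 in part, and their part in the Myh6 result was not tested.

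**Figure D5:**
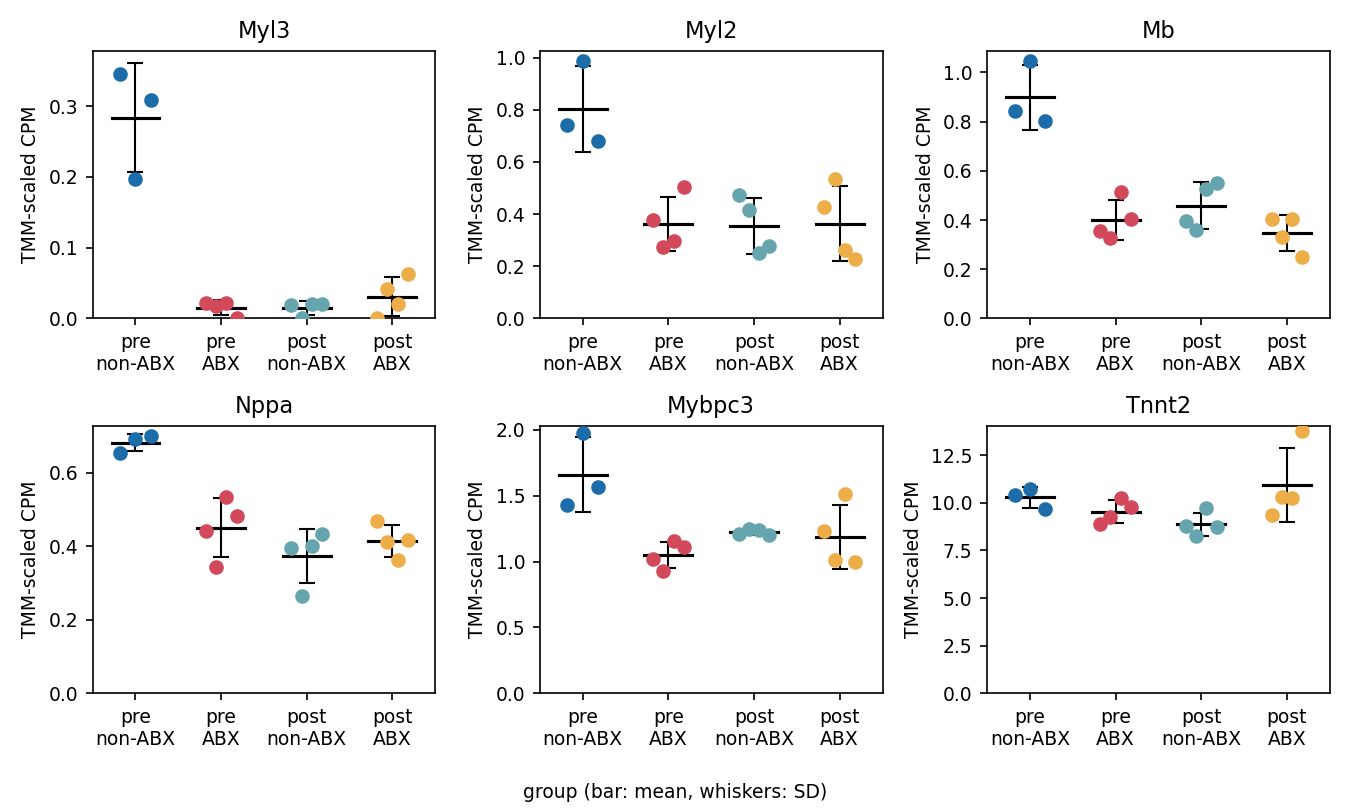
Level in TMM-scaled CPM (y axis, a separate scale for each gene) of 6 genes of heart muscle in each library, by group (x axis); points are libraries, bars means and whiskers SD. The pre-extinction non-ABX libraries lay above all others for Myl3, Myl2, Mb and Nppa, overlapped them for Mybpc3 and lay among them for Tnnt2.

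To set these genes against the whole table, all 19016 genes with at least 20 counts were screened for a group whose every library lay above every other library. The screen was added after seeing the cardiac genes and is a description. Before extinction without ABX, 23 genes (0.121%) had this pattern, and 11 of them had at least a 1.5-fold ratio of means. Ranked by that ratio the 11 began with Myl3 (13.9), Gbp10 (3.36), Myh6 (2.69), Mb (2.24), Myl2 (2.23), Dsp (1.99), Gja5 (1.91) and Nppa (1.65). The last of the 11 were Klk6 (1.59), D830030K20Rik (1.55) and Kcnmb1 (1.52). Myl3 and Gbp10 reached 20 counts only through that group, and 21 genes had the pattern among the 18748 with 20 counts outside it. Dsp is desmoplakin of cell junctions, and Gja5 is connexin 40 of arteries and atrial muscle. The same screen gave 51 genes (0.268%) for pre-extinction ABX, 40 (0.21%) for post-extinction non-ABX and 81 (0.426%) for post-extinction ABX, of which 7, 10 and 19 reached that ratio.

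In the gene lists, 2 of 24 cardiac sarcomere genes with at least 20 counts had the pattern (Myl2 and Myl3), with 1 of 13 cardiac regulators (Nppa) and 1 of 15 skeletal fibre genes (Mb). For the other 3 groups these lists gave 0. The group with the highest mean was pre-extinction non-ABX for 11 of the 24 sarcomere genes (45.8%) and 7 of the 15 skeletal fibre genes (46.7%), beside 14.6% over all genes screened. It was so for 3 of the 13 regulators (23.1%). With 20 counts asked outside that group, which leaves out Myl3, the sarcomere counts were 1 of 23 with the pattern and 10 of 23 with the highest mean (43.5%), beside 14.2% of all genes.

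Of 27 sarcomere genes 19 were tested, and edgeR called 0 in any comparison, as did DESeq2. Before extinction 13 of the 19 were negative with ABX (median log2 fold change -0.17, 3 with an unadjusted p under 0.05), and after extinction 9 were (median 0.02, 1 with an unadjusted p under 0.05). Of all 16816 genes tested, 8158 and 8145 were negative at these stages (median 0.01 at each). The 3 of 19 is near the 16.0% of all genes tested, and the 1 of 19 is below the 13.3%. Of 19 regulators and calcium-handling genes, which include the calcium pump Atp2a2, 11 were tested. Before extinction 5 were negative (median 0.04) and edgeR called 0, with 1 of 11 at an unadjusted p under 0.05 beside 16.0% of all genes, and 0 by DESeq2. Atp2a2 gave -0.01. Of 16 skeletal fibre genes 12 were tested, 6 in each direction before extinction (median -0.15). There edgeR called 0, and 4 of 12 had an unadjusted p under 0.05 beside 16.0% of all genes. DESeq2 called Mb, 1 of the 12, beside 0.0892% of all genes. Fast fibre genes Actn3 and Tnni2 gave -0.43 and -1.38 (edgeR adjusted p = 0.311 for both). The Tnni2 value rests on a low level, with means of 0.202 CPM before extinction without ABX and 0.0783 with it.

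Markers of vascular smooth muscle had lower summed levels with ABX at both stages. The summed level of its 5 markers was 23.7 to 30.8 CPM before extinction without ABX, 13.3 to 22.3 with ABX, 24.8 to 31.5 after extinction without ABX and 13.7 to 21.4 with ABX. No marker was at 0 in every library of a group. The ABX and non-ABX groups were separated at both stages, as Myh6 was. Such a separation, lower with ABX, was seen in 3.14% of all genes tested before extinction and 6.36% after. The marker sum overlapped between the non-ABX groups, where Myh6 did not. The 10 brain endothelium markers summed to 244 to 309 CPM before extinction without ABX, 165 to 245 with ABX, 265 to 290 after extinction without ABX and 181 to 243 with ABX, likewise with none at 0. All 10 had negative log2 fold changes with ABX at both stages (medians -0.52 and -0.48), and edgeR called 0. DESeq2 called 2 before and 5 after extinction, beside 0.0892% and 1.06% of all genes. The part of these vessel markers in the Myh6 values was not tested. Of 19 tested smooth muscle and pericyte genes, 18 were negative with ABX before extinction (median -0.23) and 17 after extinction (median -0.34), beside medians of 0.01 over all genes. EdgeR called 0 at either stage, and 9 and 13 of the 19 had an unadjusted p under 0.05 beside 16.0% and 13.3% of all genes. DESeq2 called Des before extinction, 1 of the 19 beside 0.0892% of all genes. After extinction it called Acta2, Tagln and Myh11, 3 of the 19 beside 1.06% of all genes. Acta2, smooth muscle actin, gave -0.89 and -0.91 (edgeR adjusted p = 0.311 and 0.165), and Des, desmin, -1.11 and -0.55 (0.311 and 0.323). None of these 20 genes lay above all other libraries before extinction without ABX.

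Thyroid hormone genes were listed because the hormone acts on both members in the heart. Of 16 transporters, receptors and responsive genes, all tested, 12 were negative with ABX before extinction (median -0.11) and 11 after extinction (median -0.04). Over all 16816 genes tested, 8158 and 8145 were negative. EdgeR and DESeq2 called 0 at either stage, and 3 of 16 had an unadjusted p under 0.05 at each, near the 16.0% and 13.3% of all genes. Hr, a hormone-induced corepressor, gave -0.44 and -0.52 (edgeR adjusted p = 0.311 and 0.214). Nrgn, neurogranin, gave -0.58 and -0.48 (0.311 and 0.318), and the receptor partner Rxrg 0.13 and 0.46 (0.726 and 0.336).

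At the locus itself, the intronic microRNA rows held few counts. Mir208a, in Myh6, had 5, 4 and 3 counts before extinction without ABX and 1 to 8 elsewhere, and Mir208b, in Myh7, had 0 to 2 in every library. A library of long RNA does not measure the mature microRNAs printed above. Mhrt, a long noncoding RNA antisense to Myh7 (chr14:54968787-54974349, plus strand), had 9, 1 and 0 counts before extinction without ABX and 0 to 5 elsewhere. None of these 3 was tested.

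The kit keeps no strand, so reads of overlapping genes cannot be told apart. Of 8616 exonic bases of Myh7, 1149 overlapped exons of other genes (Gm31251, Mhrt and Gm29015), and of 6726 of Myh6, 114 overlapped Gm49130. The nearest protein-coding gene below Myh6, Cmtm5, overlaps its RefSeq interval by 1125 bases but shares 0 exonic bases in GENCODE. Cmtm5 had 20.2 ± 3.04 CPM (SD, n = 3) before extinction without ABX and 18.5 ± 2.94 (n = 4) with ABX, a log2 fold change of -0.12 (edgeR adjusted p = 0.587). Of the 5 nearest protein-coding genes on each side, 9 of 10 were tested. All 9 were negative with ABX before extinction (median -0.12) and 6 after extinction (median -0.09), beside 8158 and 8145 of all 16816 genes tested. EdgeR and DESeq2 called 0 in either, with 2 and 0 of 9 at an unadjusted p under 0.05, beside 16.0% and 13.3% of all genes. Slc22a17 gave -0.38 and Zfhx2 -0.44 before extinction (edgeR adjusted p = 0.312 for both), and Jph4, a junctophilin, -0.16 (0.332).

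The genes most like Myh6 were ranked by Pearson r of log2 CPM over the 15 libraries, among genes with a mean of at least 1 CPM. This ranking includes the libraries that chose Myh6, so it favours genes high there and is a description. The first 6 were Ceacam1 (r = 0.843, rho = 0.789), Hmcn1 (0.800, 0.618), Mybpc3 (0.789, 0.814), Dnah3 (0.773, 0.750), Rpusd2 (0.762, 0.754) and Ptprb (0.741, 0.650). Mybpc3 had 1.66 ± 0.285 CPM (SD, n = 3) before extinction without ABX and group means of 1.05 to 1.23 CPM elsewhere. Ptprb, a receptor phosphatase of endothelium, had means of 70.1 CPM in the first group, 53.3 before extinction with ABX, 58.6 after extinction without ABX and 46.5 with ABX. Myh7 ranked 2129th of 13255 by the same measure. Within groups, as deviations from the group means, the genes most like Myh6 were Rpl9 (0.812), Sh3d19 (0.806), Mob3c (0.800) and Letm2 (0.792), so that none of the first 6 was among these 4. By that measure the first 6 had r of 0.123, 0.583, 0.218, 0.375, 0.233 and 0.230, in the order above.

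Myh7 was most like Pbxip1 (r = 0.910, rho = 0.814), Sec14l2 (0.902, 0.868), Yju2 (0.901, 0.918) and Sall3 (0.895, 0.836) over the 15 libraries. By deviations from the group means, they were Dpf3 (0.928), Lrp4 (0.920), Tmem39b (0.918) and Disp3 (0.915). All 8 have a GC content of 51.5% to 59.6% in their longest transcript, above the median of 49.9% over tested genes. Of the 10 genes most like Myh6, 3 lie above that median and 7 below it (46.1% to 56.6%). Myh7 itself has 56.2% and Myh6 56.4%. These correlations are descriptions over libraries that share depth and base composition.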

How the data were processed

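RNA was sequenced from 15 libraries of dissected mouse mPFC, prepared, per the labels' protocols, with Clontech's SMARTer kit (Ultra Low Input, V4); that text names sorted cells although the source is tissue. The authors deposited raw counts per Entrez gene. The notes on processing by the submitters name STAR 2.3.0, CASAVA 1.8.2 and mm10; read length, counting program and annotation are not given in the sources. Symbols came from RefSeq (25275 of 27179 identifiers, 99.7% of counts), and transcripts from GENCODE M21.

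Groups followed the labels. Counts were fitted in edgeR 4.0.16 (R 4.3.3) with filterByExpr (minimum count 10, total 15), TMM factors, 4 group means over all 15 libraries and two-sided quasi-likelihood tests. A call needed a p under 0.05 after Benjamini-Hochberg adjustment across the 16816 genes tested. SE is the log2 fold change over the root of F. The biological coefficient of variation was 0.112, and at 51 to 133 counts counting error also limits Myh6. Correlations used log2 CPM with a prior count of 2, and 100000 permutations. The script was tested on simulated data.

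Members and lists (7 gene lists and 15 marker lists) were chosen with earlier results of these data known. Named genes were both members, the 6 and 4 genes most like Myh6 and the 4 and 4 most like Myh7. Also named were 3 of each list by the smallest unadjusted p, all heavy chains and locus neighbours. Gm and Rik genes were left out of the likeness ranking. One gene that the rule takes is not reported here. Myl3, Csrp3, Lmod2, Ankrd1, Actc1, Mybphl, Myoz2, Myl7, Cmtm5, the transcription factors and the genes of the screen were named after their values were seen. Of the marker lists only those beside a Myh6 result are printed. Alternatives were DESeq2 1.42.0, other scalings and filters, the replicate number as a block, the compared groups alone, both members summed, each library left out and, as a later addition, a correction for GC content (5 spline degrees of freedom) chosen after seeing the data.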

Additional observations from a re-analysis of the deposited data

Results flagged for a closer look

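The Myh7 share of Myh6 plus Myh7 counts in pre-extinction ABX replicate 1 was 70.3%, while the other 3 libraries of that group lay between 78.9% and 80.6%. Its gap to the nearest of them, relative to the range of the group, passed Dixon's 95% critical value for 4 samples. Chance gives such a library in about 1 in 20 groups, and 9 groups were tested. Myh6 in that library had 1.79 CPM, the highest of its group, and Myh7 had 4.25 CPM, the lowest.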

How the results depend on the processing

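Myh6 and Myh7 kept their direction and their side of the threshold in the tested comparisons under every alternative run, except that Myh7 between stages without ABX changed sign without 1 library (-0.22 to 0.19). Left-out libraries gave -0.60 to -0.42 for Myh6 with ABX after extinction (edgeR adjusted p = 0.183 to 0.553). Summing both members gave -0.86 for ABX before extinction, -0.38 between stages without ABX and 0.60 for the interaction; the sum includes Myh7 by construction. The correlation of the members was -0.184 over deviations from group means. The Myh7 share between stages with ABX ran from -1.60 to 2.60 points with a library left out. The cause of these changes was not tested.

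Genes called, in place of 1, 3, 0 and 16 for ABX before, ABX after, stage without ABX and stage with ABX, were 15, 179, 19 and 287 with DESeq2. Without a filter they were 2 for ABX before and 2 for stage without ABX. With only the compared groups they were 32 for ABX after and 5 for stage with ABX. With the GC trend removed they were 59, 2 and 77 for the last 3 comparisons. Leaving out 1 library gave 1 to 28, 0 to 13, 0 to 1 and 3 to 238; 28, 13 and 238 came without pre-extinction ABX replicate 4. The cause was not tested.

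Same-numbered libraries did not deviate together: over 21 pairs the correlation ran from -0.491 to 0.374 (median 0.0183), beside a median of 0.0281 over 63 other pairs. With the replicate number as a block, Myh6 gave -1.69, -0.51, -1.01 and 0.17 in the order above and Myh7 -0.48, -0.18, -0.09 and 0.22. The interaction was 1.18 and 0.30 with the block. In the tested comparisons neither member was called with or without the block. The Myh6 values for ABX before extinction, stage without ABX and the interaction use the libraries that chose it and are descriptions. Genes called with the block were 1, 4, 0 and 21. Depth limits heart transcripts of few counts, as the counting interval of the Myl3 ratio, 6.03 to 94.4, shows.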
